A study of Homo sapiens with 48 samples.

Results

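The genes described are 10 of the 58870 genes counted in the series: the hyaluronan-binding proteoglycans ACAN (aggrecan), VCAN (versican) and BCAN (brevican), the link protein HAPLN3, and the secreted metalloproteases ADAMTS1, ADAMTS4, ADAMTS5, ADAMTS9, ADAMTS10 and ADAMTS15. They were chosen by name, with the effect of IDE196 at 24 h already known, because ACAN and ADAMTS15 rose most among them in that comparison. The values of that comparison therefore chose the members and are given below as a description, with no test of the members. The text covers the level of each gene in untreated cells of each line, the effect of FHT-1015 at 4 h and 24 h, the effect of IDE196 at both times, and the other genes of the same matrix pathway.

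The libraries came from 3 uveal melanoma cell lines, 92-1, MEL202 and MP41, each labelled wild type and established from a tumour of the pigment cells of the eye. Cells of each line received FHT-1015, which inhibits SMARCA4 and SMARCA2, the alternative ATPases of BAF chromatin remodelling complexes, or DMSO, the solvent control, for 4 h or 24 h. The 92-1 line also has an experiment with IDE196, which inhibits protein kinase C, with DMSO libraries of its own. There were 3 replicates in each of the 16 groups, 48 libraries in all, and the drug doses are not given in the labels. Each line stands for itself and not for uveal melanoma in general. The labels call the replicates biological, and nothing says whether they came from separate cultures, so p-values measure the spread between these samples, which may be technical.

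Aggrecan, versican and brevican are large core proteins that carry chondroitin sulfate chains. Their globular head binds hyaluronan, and link proteins such as HAPLN3 hold the complex together. Aggrecan gives cartilage its resistance to compression, versican belongs to loose and remodelling matrix, and brevican is best known from the matrix around neurons. ADAMTS1, ADAMTS4, ADAMTS5, ADAMTS9 and ADAMTS15 belong to the branch of ADAMTS proteases that cut these core proteins, ADAMTS4 and ADAMTS5 being the classical aggrecanases, while ADAMTS10 is associated with fibrillin microfibrils and does not belong to that branch.

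Libraries held from 11394088 to 32317711 reads in genes. Levels are given as CPM, read counts scaled to library size with TMM factors over the 48 libraries, and 3 reads were taken as the floor below which a level is not resolved. In the MEL202 group given FHT-1015 for 4 h, replicate 2 stood apart: it had 17592 genes with a read against at least 20023 in the other 47 libraries, and the lowest mean correlation with its own group, 0.9548. Results that rest on it are given with and without it. Markers of melanocytic cells summed to between 2750 and 23100 CPM in the 48 libraries, while 4 endothelial markers reached at most 4.3 CPM and 4 leucocyte markers at most 4.57 CPM, and 4 markers of retinal pigment epithelium at most 8.22 CPM. CDH5, CD68, CD3E and RPE65, markers of endothelium, macrophages, T cells and retinal pigment epithelium, were at or under the floor in every library. Other genes of those lists were measured, with group means of up to 3.17 CPM for KDR, 2.64 for PTPRC, 5.12 for RLBP1, 4.32 for LRAT and 2.6 for RGR. Sums reached higher for markers of fibroblasts (3.12 to 45.0 CPM), epithelial cells (0.418 to 25.8) and chondrocytes (5.29 to 237). In these bulk samples fewer cells of a type and less RNA per cell cannot be told apart.

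Positions are from GENCODE 29 (GRCh38). VCAN lies at chr5:83471465-83582303 on the plus strand and BCAN at chr1:156641390-156659532 on the plus strand. The proteases lie at chr21:26835747-26845409 (ADAMTS1), chr1:161184308-161199056 (ADAMTS4), chr21:26917912-26966513 (ADAMTS5), chr3:64515654-64688000 (ADAMTS9) and chr19:8580242-8610735 (ADAMTS10), all on the minus strand, and at chr11:130448974-130476641 on the plus strand (ADAMTS15). Exons of VCAN share 453 bases with the antisense gene VCAN-AS1, exons of BCAN share 328 and 354 bases with 2 antisense genes, and exons of ADAMTS9 share 174 bases with ADAMTS9-AS1. The libraries keep no strand, so reads in those stretches cannot be told apart.

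ACAN and HAPLN3 are neighbours on chromosome 15. ACAN runs on the plus strand from 88803442 to 88875354 and HAPLN3 on the minus strand from 88877288 to 88895626, so the 2 genes end towards each other with 1933 bases between them. Their annotated exons do not overlap, but reads from beyond one gene's end cannot be told apart by strand from reads of the other. Other pairs of a hyalectan and a link protein are adjacent too, with a gap of 55501 bases between VCAN and HAPLN1 on chromosome 5, and of 15664 bases between HAPLN2 and BCAN on chromosome 1. ADAMTS1 and ADAMTS5 lie 72502 bases apart on chromosome 21, and ADAMTS15 lies 19980 bases from ADAMTS8 on chromosome 11. The sequences before the starts of ACAN and HAPLN3 are shown because these neighbours were higher together with IDE196 at 24 h and both fell in MEL202 with FHT-1015. They are from RefSeq (GRCh38.p14), 5′ to 3′ on the strand of the gene, cut where the GENCODE 29 gene begins, with GC boxes (GGGCGG on either strand) in capitals.
ACAN, plus strand, chr15:88803186-88803435: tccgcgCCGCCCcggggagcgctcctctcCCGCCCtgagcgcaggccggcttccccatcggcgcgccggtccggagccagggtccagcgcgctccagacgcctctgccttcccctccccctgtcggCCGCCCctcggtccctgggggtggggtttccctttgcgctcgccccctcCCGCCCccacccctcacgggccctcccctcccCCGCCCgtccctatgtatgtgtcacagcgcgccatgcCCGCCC
HAPLN3, minus strand, chr15:88895627-88895794: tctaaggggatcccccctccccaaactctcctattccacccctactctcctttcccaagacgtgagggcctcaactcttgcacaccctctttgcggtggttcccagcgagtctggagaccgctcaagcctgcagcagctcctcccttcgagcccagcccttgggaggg
The 250 bases before ACAN were 77.2% G or C and held 6 GC boxes. The 250 bases before the RefSeq start of HAPLN3 were 60.4% G or C and held none. A GC box was found in 42.6% of the 35116 promoter windows of this length in the table, whose median G and C content was 58.0%. Neither window held TGANTCA (an AP-1 motif, in 6.57% of all windows), TGACGTCA (a CRE, 1.65%), CACGTG (an E-box, 6.34%), ACAANG (a SOX motif, 30.9%) or TATAAA (10.7%), searched on both strands with overlaps allowed. Entries were found for 5 of the 10 genes, and these matches describe letters only.

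In DMSO the lines differed in which hyalectan they expressed. BCAN was the leading member per length of transcript in 92-1 and MEL202, and VCAN was measurable in 92-1 but not in the other lines. ACAN was measurable in MEL202, had few reads in 92-1 and was not measurable in MP41. In the 6 DMSO libraries of the FHT-1015 experiment of 92-1, BCAN ranged from 396 to 548 CPM with a median of 473. The 6 of MEL202 ranged from 136 to 198 with a median of 152, and those of MP41 from 9.91 to 20.1 with a median of 10.2. The 3 ranges did not overlap. BCAN was 39.0-fold lower in MP41 than in 92-1 (log2 fold change -5.29 ± 0.16 SE, edgeR quasi-likelihood test, Benjamini-Hochberg adjusted p = 4.15e-18) and 2.96-fold lower in MEL202 than in 92-1 (edgeR adjusted p = 1.16e-09).

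VCAN had between 55 and 93 reads in the 6 DMSO libraries of 92-1 (2.91 to 5.72 CPM, median 3.74), at most 2 in those of MEL202 and at most 1 in those of MP41. Set against the floor of 3 reads per library, it was at least 28.1-fold lower in MEL202 and at least 27.4-fold lower in MP41 than in 92-1. ACAN was highest in MEL202, from 1.86 to 5.76 CPM with a median of 3.58. In 92-1 it ranged from 0.184 to 0.614 CPM (median 0.492), on 3 to 10 reads. It had at most 1 read in any MP41 library in DMSO, at least 24.0-fold lower than in MEL202 and at least 3.07-fold lower than in 92-1. The higher level in MEL202 than in 92-1 was 7.78-fold (log2 fold change 2.96 ± 0.31, edgeR adjusted p = 2.01e-08). That size, and the bound for MP41 against 92-1, rest on the few reads of 92-1. HAPLN3 was more even: medians were 11 CPM in 92-1, 9.03 in MP41 and 5.40 in MEL202, and the ranges of 92-1 (9.20 to 14.0) and MP41 (7.91 to 18.8) overlapped. It was 2.01-fold lower in MEL202 than in 92-1 (edgeR adjusted p = 3.47e-05), and the difference between MP41 and 92-1 was not called (log2 fold change -0.09 ± 0.17, edgeR adjusted p = 0.661).

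Among the proteases, ADAMTS1 was the most abundant per length in 92-1 and MEL202 and the most abundant of the 10 genes in MP41. Its DMSO medians were 52.8 CPM in 92-1, 86.8 in MEL202 and 50.9 in MP41. The range of 92-1 (39.3 to 65.0) overlapped both others, and those of MEL202 (64.8 to 113) and MP41 (33.3 to 59.6) did not meet. It was 1.74-fold higher in MEL202 than in 92-1 (edgeR adjusted p = 4.81e-06), and MP41 and 92-1 were not called different (log2 fold change -0.08 ± 0.12, edgeR adjusted p = 0.569). ADAMTS15 stood out in MP41, where it ranged from 20.1 to 35.5 CPM (median 21.1), against 0.246 to 0.621 in 92-1 and 0.400 to 1.40 in MEL202. The MP41 level was 54.0-fold that of 92-1 (log2 fold change 5.76 ± 0.26, edgeR adjusted p = 3.09e-15). ADAMTS9 was also highest in MP41, from 7 to 10.8 CPM, 24.4-fold above 92-1 (edgeR adjusted p = 1.03e-09). ADAMTS4 was low everywhere and highest in MP41, where its median was 1.53 CPM. In 92-1 it had at most 5 reads in a DMSO library of the FHT-1015 experiment. ADAMTS5 and ADAMTS10 were highest in MEL202, with medians of 4.46 and 7.59 CPM. ADAMTS5 was not called different between MP41 and 92-1 (log2 fold change 1.04 ± 0.48, edgeR adjusted p = 0.0591). It was called with library size alone as the scaling (edgeR adjusted p = 0.0405) and with no filter for low counts (0.0252).

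**Figure D1:**
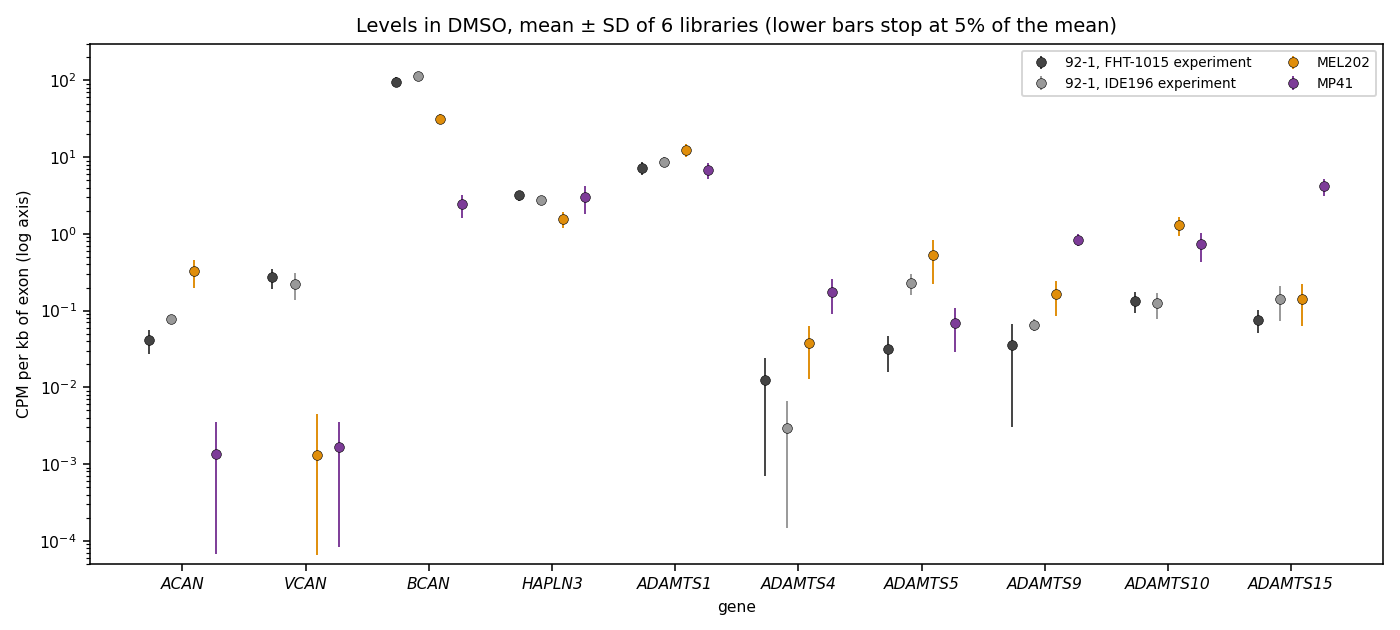
Mean level of each of the 10 genes in DMSO, in CPM per kb of exon on a log axis, for the 4 DMSO sets (dark grey 92-1 of the FHT-1015 experiment, light grey 92-1 of the IDE196 experiment, orange MEL202, purple MP41), with the SD of 6 libraries as bars. BCAN is the highest in 92-1 and MEL202, and ACAN and VCAN lie near the bottom where a set had at most 2 reads in a library.

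Counted over the members, MEL202 and 92-1 differed in 10 of 10 genes, where 55.4% of all genes tested differed by edgeR. MP41 and 92-1 differed in 7 of 10, against 67.3% of all genes, and MP41 and MEL202 in 9 of 10, against 58.3%. Each line was its own experiment, so line and experiment cannot be told apart in these counts. VCAN, with at most 2 reads in a DMSO library of MEL202 and 1 of MP41, had enough reads to be tested only through 92-1, where it is high. ADAMTS4, with at most 5 reads in these libraries of 92-1, rests on MP41 in the same way. The counts against 92-1 therefore include genes that had to differ. Per kilobase of exon the order within 92-1 (FHT-1015 experiment) was BCAN at 96.5 ± 13.7 CPM per kb (SD, n = 6), ADAMTS1 at 7.31 ± 1.46 and HAPLN3 at 3.18 ± 0.474, with the other 7 genes at 0.273 or less. In MP41 the order was ADAMTS1 at 6.85 ± 1.65, ADAMTS15 at 4.18 ± 1.06, HAPLN3 at 3.01 ± 1.18 and BCAN at 2.42 ± 0.809, where each of these neighbours lay within about the sum of their SDs. The plot of levels in DMSO shows these orders.

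The same line in 2 experiments gave a measure of how far levels move with no drug. Between the DMSO libraries of 92-1 in the IDE196 experiment and in the FHT-1015 experiment, 3 of 10 genes differed, against 39.1% of all genes. Over all genes 3371 were higher and 3392 lower in the IDE196 experiment, and 2566 and 4227 with library size alone as the scaling, under which the same 3 of 10 were called. ADAMTS5 ranged from 1.04 to 2.77 CPM in the former and from 0.0477 to 0.430 in the latter, ranges that did not overlap, and was 7.52-fold higher in the former (edgeR adjusted p = 1.79e-05). ACAN was 1.93-fold higher (edgeR adjusted p = 0.0232) and ADAMTS15 1.78-fold higher (edgeR adjusted p = 0.0291). Each drug was therefore compared only with its own DMSO.

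With FHT-1015 for 4 h, 2 of the 7 members tested in 92-1 fell and none rose, where 16.7% of all genes fell and 12.9% rose. BCAN was 423, 430 and 396 CPM in DMSO and 317, 302 and 320 with the drug. Every treated library was below every control, and the fall was 1.35-fold (log2 fold change -0.43 ± 0.08, edgeR adjusted p = 0.000793). HAPLN3 was 9.20, 10.2 and 11.5 CPM in DMSO and 6.16, 6.65 and 6.78 with the drug, without overlap. It fell by 0.68 ± 0.18 on the log2 scale (edgeR adjusted p = 0.00953). ACAN had 10, 8 and 3 reads in DMSO and 4, 3 and 2 with FHT-1015, too few for the low-count filter, as were ADAMTS4 and ADAMTS15. VCAN was 3.12, 3.12 and 5.72 CPM in DMSO and 6.59, 6.55 and 5.23 with the drug, overlapping (log2 fold change 0.61 ± 0.33, edgeR adjusted p = 0.18). It was called in the fit with no low-count filter (edgeR adjusted p = 0.00967) and in the fit with a replicate block (edgeR adjusted p = 0.0479).

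In MEL202 at 4 h, edgeR called 0 of the 9 members tested in either direction, against 0.157% of all genes higher and 0.522% lower. One member, ADAMTS5, had an unadjusted p under 0.05 there, and DESeq2 called 0. In MP41 at 4 h, edgeR called 0 of 8, against 0.0708% of all genes higher and 0.154% lower, with 1 member, ADAMTS4, under an unadjusted p of 0.05 and 0 by DESeq2. With so few calls over all genes these counts say little about the members. The library of MEL202 that stood apart carried 7.19 CPM of ACAN, where replicates 1 and 3 of the same group had 0.770 and 1.67. It also had the highest ADAMTS9 of its group, 5.48 CPM against 1.69 and 1.88. Without it the ACAN log2 fold change at 4 h went from 0.13 to -1.32 (edgeR adjusted p = 0.983 and 0.4), still with 0 members called.

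By 24 h the hyalectans and the link protein had moved the same way in the lines where they could be measured, with VCAN as the exception. BCAN and HAPLN3 fell in all 3 lines, ACAN fell in MEL202, and VCAN rose in 92-1. In 92-1, 3 of 7 tested members rose (29.2% of all genes did) and 2 fell (31.4%). In MEL202, 0 of 9 rose (8.69%) and 4 fell (10.1%), and in MP41 3 of 8 rose (17.4%) and 4 fell (18.7%). The median log2 fold change was 1.09 over the tested members in 92-1, -1.05 in MEL202 and -0.43 in MP41, beside -0.001, -0.006 and 0.065 over all genes tested.

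BCAN in 92-1 was 544, 516 and 548 CPM in DMSO at 24 h and 106, 97.4 and 86.9 with FHT-1015. This was a 5.62-fold fall (log2 fold change -2.49 ± 0.09, edgeR adjusted p = 6.09e-12). In MEL202 it went from 148, 136 and 138 CPM to 52.6, 57.3 and 55.2, a fall by 1.33 ± 0.18 on the log2 scale (edgeR adjusted p = 0.000193). MP41 started from far less: 10.2, 20.1 and 9.91 CPM in DMSO and 6.59, 5.52 and 7.74 with the drug, a fall by 0.94 ± 0.23 (edgeR adjusted p = 0.00709). In none of the 3 lines did treated and control libraries overlap. Replicate 2 of MP41 in DMSO at 24 h lay apart from its group in BCAN, in HAPLN3 at 18.8 CPM against 11 and 9.63, and in ADAMTS15 at 35.5 against 24.3 and 20.1. In the MP41 fits leaving out 1 library, the log2 fold change at 24 h lay between -1.16 and -0.59 for BCAN. It lay between -1.65 and -1.14 for HAPLN3 and between -1.25 and -0.82 for ADAMTS15. Each was called in 12 of 12 of these fits.

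HAPLN3 in 92-1 was 10.6, 14.0 and 11.9 CPM in DMSO at 24 h and 3.34, 2.77 and 1.80 with FHT-1015, a fall by 2.24 ± 0.20 on the log2 scale (edgeR adjusted p = 1.53e-07). In MP41 it went from 11, 18.8 and 9.63 CPM to 4.70, 4.20 and 5.03, a fall by 1.42 ± 0.24 (edgeR adjusted p = 0.000551). Treated libraries were below all controls in both lines. In MEL202 it went from 5.95, 4.01 and 6.59 CPM to 2.18, 3.12 and 2.61, a fall by 1.05 ± 0.32 (edgeR adjusted p = 0.0335). That call in MEL202 was lost in 5 of 12 fits leaving out 1 library, each of them a DMSO or FHT-1015 library of 24 h, with adjusted p up to 0.135, and with a replicate block (edgeR adjusted p = 0.0522).

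ACAN, the neighbour of HAPLN3, was 2.52, 5.76 and 4.06 CPM in MEL202 with DMSO at 24 h and 0.0947, 0.312 and 0.465 with FHT-1015. The groups were far apart, and the fall was 13.5-fold (log2 fold change -3.76 ± 0.79, edgeR adjusted p = 0.00452, and 0.00025 without the library that stood apart). In 92-1 it had 8, 10 and 9 reads in DMSO and 0, 1 and 0 with FHT-1015. It did not pass the low-count filter there, and its level with the drug was at least 2.45-fold lower, set against the floor of 3 reads per library. With no low-count filter the difference was called (fitted log2 fold change -4.12, edgeR adjusted p = 0.000343), a size that rests on that 1 treated read. In MP41, ACAN had at most 1 read in every library of 24 h, so no change could be seen at this depth.

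VCAN went the other way in 92-1, from 2.91, 4.36 and 5.10 CPM in DMSO to 12.1, 17.7 and 30.8 with FHT-1015 at 24 h. The rise was 4.87-fold (log2 fold change 2.28 ± 0.32, edgeR adjusted p = 1.5e-05). In MEL202 it had 0, 2 and 0 reads in DMSO and 0, 9 and 4 with the drug, and in MP41 1, 0 and 0 reads and 0, 6 and 3, levels near the floor in both. The 8 fibroblast markers, which include the collagen genes COL1A1 and COL3A1, summed to between 4.15 and 5.22 CPM in 92-1 with DMSO at 24 h and between 14.6 and 17.6 with FHT-1015. In MEL202 that sum went from between 7.21 and 8.76 CPM to between 36.4 and 43.8. In MP41, where VCAN had at most 6 reads, the sum was between 29 and 45.0 CPM in DMSO and between 32.0 and 41.6 with the drug. Only 2 of the 8 markers reached a group mean of 1 CPM in 92-1 with FHT-1015. Of the 16 groups of libraries, 92-1 with FHT-1015 at 24 h had the highest mean of PDGFRA, 4.18 CPM, and of THY1, 0.287 CPM, a low level. LUM went the other way there, from 0.425 ± 0.0545 to 0.121 ± 0.054 CPM (edgeR adjusted p = 0.0267), its lowest group mean. COL1A1 had its highest mean, 24.5 CPM, in MP41 with DMSO at 24 h. MEL202 with FHT-1015 at 24 h had the highest mean of COL3A1, 32.8 CPM. DCN had a group mean of at most 0.463 CPM. The part of these markers in the rise of VCAN was not tested.

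Melanocytic markers moved with the fall of BCAN and HAPLN3. The 8 markers summed to between 19000 and 23100 CPM in 92-1 with DMSO at 24 h and between 4850 and 5320 with FHT-1015. The corresponding ranges were 7890 to 9610 and 2750 to 3190 in MEL202, and 11700 to 12700 and 5380 to 5940 in MP41. At 4 h, when BCAN and HAPLN3 fell in 92-1, the sum was 20200 to 21400 in DMSO and 15700 to 17800 with the drug. Their part in the fall of the members was not tested.

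The proteases split. ADAMTS5 rose in 92-1 and MP41, ADAMTS10 rose in the same 2 lines, ADAMTS9 rose in MP41, and ADAMTS1 fell in MEL202 and MP41. ADAMTS5, an aggrecanase, had 0.0477, 0.368 and 0.430 CPM in 92-1 with DMSO at 24 h, which were 1, 6 and 7 reads, and 13.7, 11.4 and 16.5 CPM with FHT-1015, or 197, 140 and 275 reads. It rose 50.4-fold (log2 fold change 5.65 ± 0.38, edgeR adjusted p = 5.26e-09), a size that rests on those few control reads. ADAMTS5 passed the low-count filter in this experiment only through the 3 libraries of FHT-1015 at 24 h, so any count of tested members there includes a gene that had to differ. It was also called in each of the 7 alternatives other than leaving out a library, the one with no low-count filter among them. The log2 fold change was 5.05 without DMSO replicate 1 of 24 h and at most 6.11 in the fits leaving out 1 library. In MP41 it went from 0.474, 0.290 and 0.281 CPM to 0.972, 0.933 and 1.59, a 3.43-fold rise (edgeR adjusted p = 0.00727). In MEL202, where it was already 2.48, 7.97 and 7.73 CPM, it was 6.72, 5.12 and 6.47 with the drug, overlapping and not called (log2 fold change 0.03 ± 0.44, edgeR adjusted p = 0.971). The 3 treated libraries of 92-1 had the highest ADAMTS5 of the 48.

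ADAMTS10 in MP41 went from 4.55, 7.24 and 4.05 CPM to 9.94, 9.76 and 7.97 (log2 fold change 0.88 ± 0.25, edgeR adjusted p = 0.0137), and in 92-1 from 0.621, 0.675 and 1.11 CPM to 1.60, 2.12 and 1.5 (1.09 ± 0.39, edgeR adjusted p = 0.0237). The groups did not overlap in either line, nor in MEL202, where the change was not called (0.45 ± 0.30, edgeR adjusted p = 0.345). The call in 92-1 rested on 11 to 26 reads per library and was lost without DMSO replicate 1, DMSO replicate 2 or FHT-1015 replicate 2 of 24 h (edgeR adjusted p 0.0923, 0.072 and 0.0864). In MP41 it was lost without DMSO replicate 1 of 24 h (edgeR adjusted p = 0.0578) and in a fit of only the 6 libraries compared (0.0676).

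ADAMTS9 in MP41 rose from 9.76, 10.8 and 7.99 CPM to 20, 16.4 and 19.9 (2.07-fold, edgeR adjusted p = 0.000692). In 92-1 it had 2, 0 and 15 reads in DMSO and 16, 7 and 12 with FHT-1015, overlapping. That change was not called (log2 fold change 1.27 ± 0.85, edgeR adjusted p = 0.209), and was called without DMSO replicate 3 (3.73, edgeR adjusted p = 0.00697). ADAMTS1 in MEL202 went from 76.1, 113 and 100 CPM to 39.3, 32.3 and 33.7, a 2.71-fold fall (log2 fold change -1.44 ± 0.21, edgeR adjusted p = 0.000408). In MP41 the fall was 1.38-fold (edgeR adjusted p = 0.0282), from 44.1, 33.3 and 37.4 CPM to 29.6, 23.9 and 26.5. It was lost without any of 3 libraries of MP41 at 24 h, DMSO replicate 1 and FHT-1015 replicates 2 and 3, with adjusted p up to 0.136. It was also lost with no low-count filter (edgeR adjusted p = 0.0846) and in a fit of only the 6 libraries compared (0.105). In 92-1 ADAMTS1 was 55.1, 40.4 and 39.3 CPM and 44.0, 34.4 and 42.0, overlapping and not called (log2 fold change -0.18 ± 0.13, edgeR adjusted p = 0.236).

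ADAMTS15, the protease that was high only in MP41 among the DMSO sets, went there from 24.3, 35.5 and 20.1 CPM to 14.5, 13.4 and 9.29 with FHT-1015 at 24 h. The fall was 2.04-fold (edgeR adjusted p = 0.00248). In MEL202 it was 0.687, 1.40 and 1.35 CPM in DMSO and 0.331, 0.234 and 0.279 with the drug, without overlap, on 6 to 45 reads. It passed the low-count filter there only through the DMSO libraries of 24 h, where it is highest. That difference missed the threshold (log2 fold change -1.98 ± 0.66, edgeR adjusted p = 0.0513) and passed it without the library that stood apart (0.0122) and by DESeq2 (DESeq2 adjusted p = 0.0207). ADAMTS4, the other classical aggrecanase, was not called in MEL202 (log2 fold change 0.70 ± 0.75, edgeR adjusted p = 0.585) or MP41 (-0.39 ± 0.35, edgeR adjusted p = 0.411), and was not tested in 92-1.

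**Figure D2:**
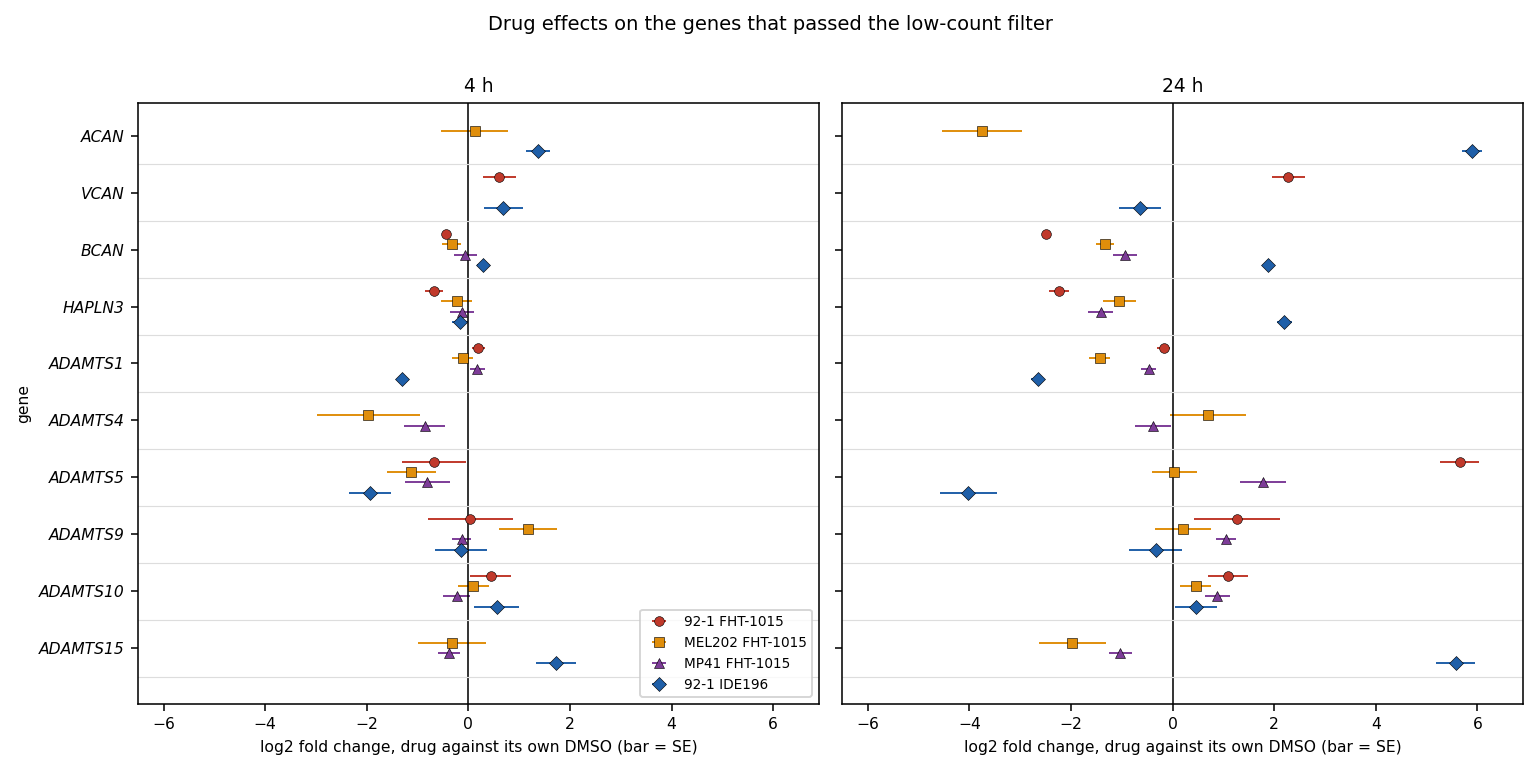
Log2 fold change of each member for each drug against its own DMSO at 4 h (left) and 24 h (right), with standard errors as bars (red circles 92-1, orange squares MEL202 and purple triangles MP41 with FHT-1015, blue diamonds 92-1 with IDE196). Only genes that passed the low-count filter are drawn. At 24 h BCAN and HAPLN3 lie left of 0 for FHT-1015 in the 3 lines and right of 0 for IDE196, and ADAMTS5 lies right for FHT-1015 in 92-1 and left for IDE196.

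The late effect of FHT-1015 was set against the early one within each line. In 92-1, 4 of 7 members differed between 24 h and 4 h (45.5% of all genes did): VCAN, BCAN, HAPLN3 and ADAMTS5. In MEL202, 3 of 9 did (6.89%): ACAN, BCAN and ADAMTS1. In MP41, 5 of 8 did (18.6%): HAPLN3, ADAMTS1, ADAMTS5, ADAMTS9 and ADAMTS10. For ADAMTS5 in 92-1 the late effect exceeded the early one by 6.32 ± 0.81 on the log2 scale (edgeR adjusted p = 1.51e-05), from 0.227, 0.376 and 0.246 CPM in DMSO and 0.260, 0.182 and 0.0646 with the drug at 4 h. That difference lay between 5.72 and 6.78 in the fits leaving out 1 library. ADAMTS5 passed the low-count filter in 92-1 only through the libraries of FHT-1015 at 24 h, where it is high. The 4 of 7 therefore include a gene that had to differ. The difference for ACAN in MEL202 (-3.89 ± 1.03, edgeR adjusted p = 0.0365) was -2.44 and not called without the library that stood apart (edgeR adjusted p = 0.0567), and was lost in 9 of 12 fits leaving out 1 library. BCAN in MEL202 lost its call in 6 of those 12 fits and ADAMTS1 in 2. In MP41, ADAMTS1 lost it in 8 of 12 and ADAMTS10 in 10, HAPLN3 in 1, and ADAMTS5 and ADAMTS9 in none.

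The 3 lines were also compared with each other. At 24 h, the effect of FHT-1015 differed among the lines for 3 of 10 members, against 12% of all genes tested in the fit of 36 libraries: ADAMTS5 (edgeR adjusted p = 7e-07), BCAN (9.16e-05) and ADAMTS1 (0.000486). ADAMTS5 rose by 5.65 in 92-1 and by 1.78 in MP41 on the log2 scale, and was at 0.03 in MEL202. BCAN fell by 2.49, 1.33 and 0.94 in 92-1, MEL202 and MP41, the order of its level in DMSO. ADAMTS1 fell by 1.44 in MEL202 and 0.47 in MP41 and was at -0.18 in 92-1. For HAPLN3 a difference among lines was not called (edgeR adjusted p = 0.0975), nor for ACAN (0.612) or VCAN (0.942), whose levels were near the floor in 1 or 2 lines. At 4 h edgeR called 0 of 10 members different among lines, against 1.38% of all genes, with 0 members under an unadjusted p of 0.05. Without the library that stood apart, the numbers were again 3 at 24 h and 0 at 4 h.

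IDE196 in 92-1 moved 4 of 9 tested members by 4 h: ACAN and ADAMTS15 rose, and ADAMTS1 and ADAMTS5 fell. Over all genes 6.89% rose and 9.3% fell. ACAN was 0.952, 0.936 and 0.714 CPM in DMSO (20, 22 and 15 reads) and 2.65, 2.32 and 1.78 with IDE196 (60, 43 and 31 reads), a 2.59-fold rise (log2 fold change 1.37 ± 0.23, edgeR adjusted p = 0.000451). ADAMTS15 was 0.714, 1.11 and 1.38 CPM in DMSO and 2.03, 3.72 and 5.06 with the drug, a 3.29-fold rise (1.72 ± 0.39, edgeR adjusted p = 0.00523). All treated libraries were above all controls in both genes. ADAMTS1 was 68.1, 74.3 and 63.4 CPM in DMSO and 27.4, 27.6 and 28.9 with IDE196, a 2.46-fold fall (-1.30 ± 0.11, edgeR adjusted p = 4.83e-07). ADAMTS5 was 1.90, 2.77 and 2.71 CPM and 0.794, 0.539 and 0.575, a 3.83-fold fall (-1.94 ± 0.41, edgeR adjusted p = 0.00294). Here too the groups did not overlap. These 4 calls held in all 12 fits leaving out 1 library. HAPLN3 was not called (-0.17 ± 0.16, edgeR adjusted p = 0.527), nor was BCAN, whose 688, 702 and 618 CPM with the drug lay above 606, 556 and 492 in DMSO (0.28 ± 0.11, edgeR adjusted p = 0.0937).

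The 2 drugs were compared in the fit of the 24 libraries of 92-1, each against its own DMSO. At 4 h, 4 of 9 members differed, against 24.6% of all genes. The IDE196 effect exceeded the FHT-1015 effect for BCAN by 0.71 ± 0.14 on the log2 scale (edgeR adjusted p = 0.000246). It was lower for ADAMTS1, by -1.49 ± 0.18 (edgeR adjusted p = 3.64e-07). The other calls were ACAN and ADAMTS15, which passed the low-count filter only through the IDE196 experiment, where they are high. With FHT-1015 at 4 h they had 4, 3 and 2 reads and 8, 0 and 2, near the floor, so no size of their difference is given and nothing is read from these calls. ADAMTS5 was not called different between the drugs at 4 h (-1.26 ± 0.80, edgeR adjusted p = 0.28).

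At 24 h of IDE196, the comparison in which the members were chosen, ACAN was 0.839, 0.857 and 0.815 CPM in DMSO and 45.7, 47.9 and 62.1 with IDE196, or 18, 17 and 18 reads against 980, 911 and 1043. Its log2 fold change was 5.89 ± 0.19, a 59.5-fold difference. ADAMTS15 was 0.326, 0.504 and 0.815 CPM in DMSO and 16.6, 29 and 36.9 with the drug (5.57 ± 0.39). The treated level of ADAMTS15 in 92-1 overlapped the range of MP41 in DMSO, 20.1 to 35.5 CPM. The treated level of ACAN was above that of every DMSO library of MEL202, the line where it was highest without a drug.

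BCAN with IDE196 at 24 h stood at 2360, 2190 and 2120 CPM, against 638, 623 and 493 in DMSO (1.88 ± 0.11). HAPLN3 was 39.0, 49.2 and 57.3 CPM against 10.6, 9.63 and 10.2 (2.20 ± 0.15). Treated and control libraries were apart in both. The proteases that cut aggrecan and were lower were ADAMTS1, at 7.92, 10.8 and 7.74 CPM against 56.7, 49.5 and 55.6 (-2.66 ± 0.12), and ADAMTS5, with 2, 4 and 0 reads against 42, 44 and 23 (-4.02 ± 0.56, a fitted value that rests on those few reads). ADAMTS9 (-0.33 ± 0.52), ADAMTS10 (0.46 ± 0.42) and VCAN (-0.64 ± 0.42) overlapped their controls, and ADAMTS4 had at most 3 reads in a library.

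The 6 chondrocyte markers summed to between 51.4 and 62.3 CPM in DMSO and between 190 and 237 with IDE196 at 24 h. This came mainly from the fibrillar and fibril-associated collagen genes COL11A2, at a mean of 139 CPM with the drug, and COL9A1, at 62.4. COL2A1, the main cartilage collagen, had a mean of 2.31 CPM there, and CNMD, a cartilage-specific gene, was at or under the floor in every library. The 8 melanocytic markers summed to between 16800 and 19400 CPM in DMSO and 18500 and 20900 with IDE196. The 8 fibroblast markers summed to between 8.30 and 12.6 CPM in DMSO and between 13.8 and 24.6 with the drug, without overlap. The 5 epithelial markers summed to between 3.73 and 19.8 CPM in DMSO and between 9 and 25.8 with the drug, overlapping. The part of these markers in the member values was not tested.

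**Figure D3:**
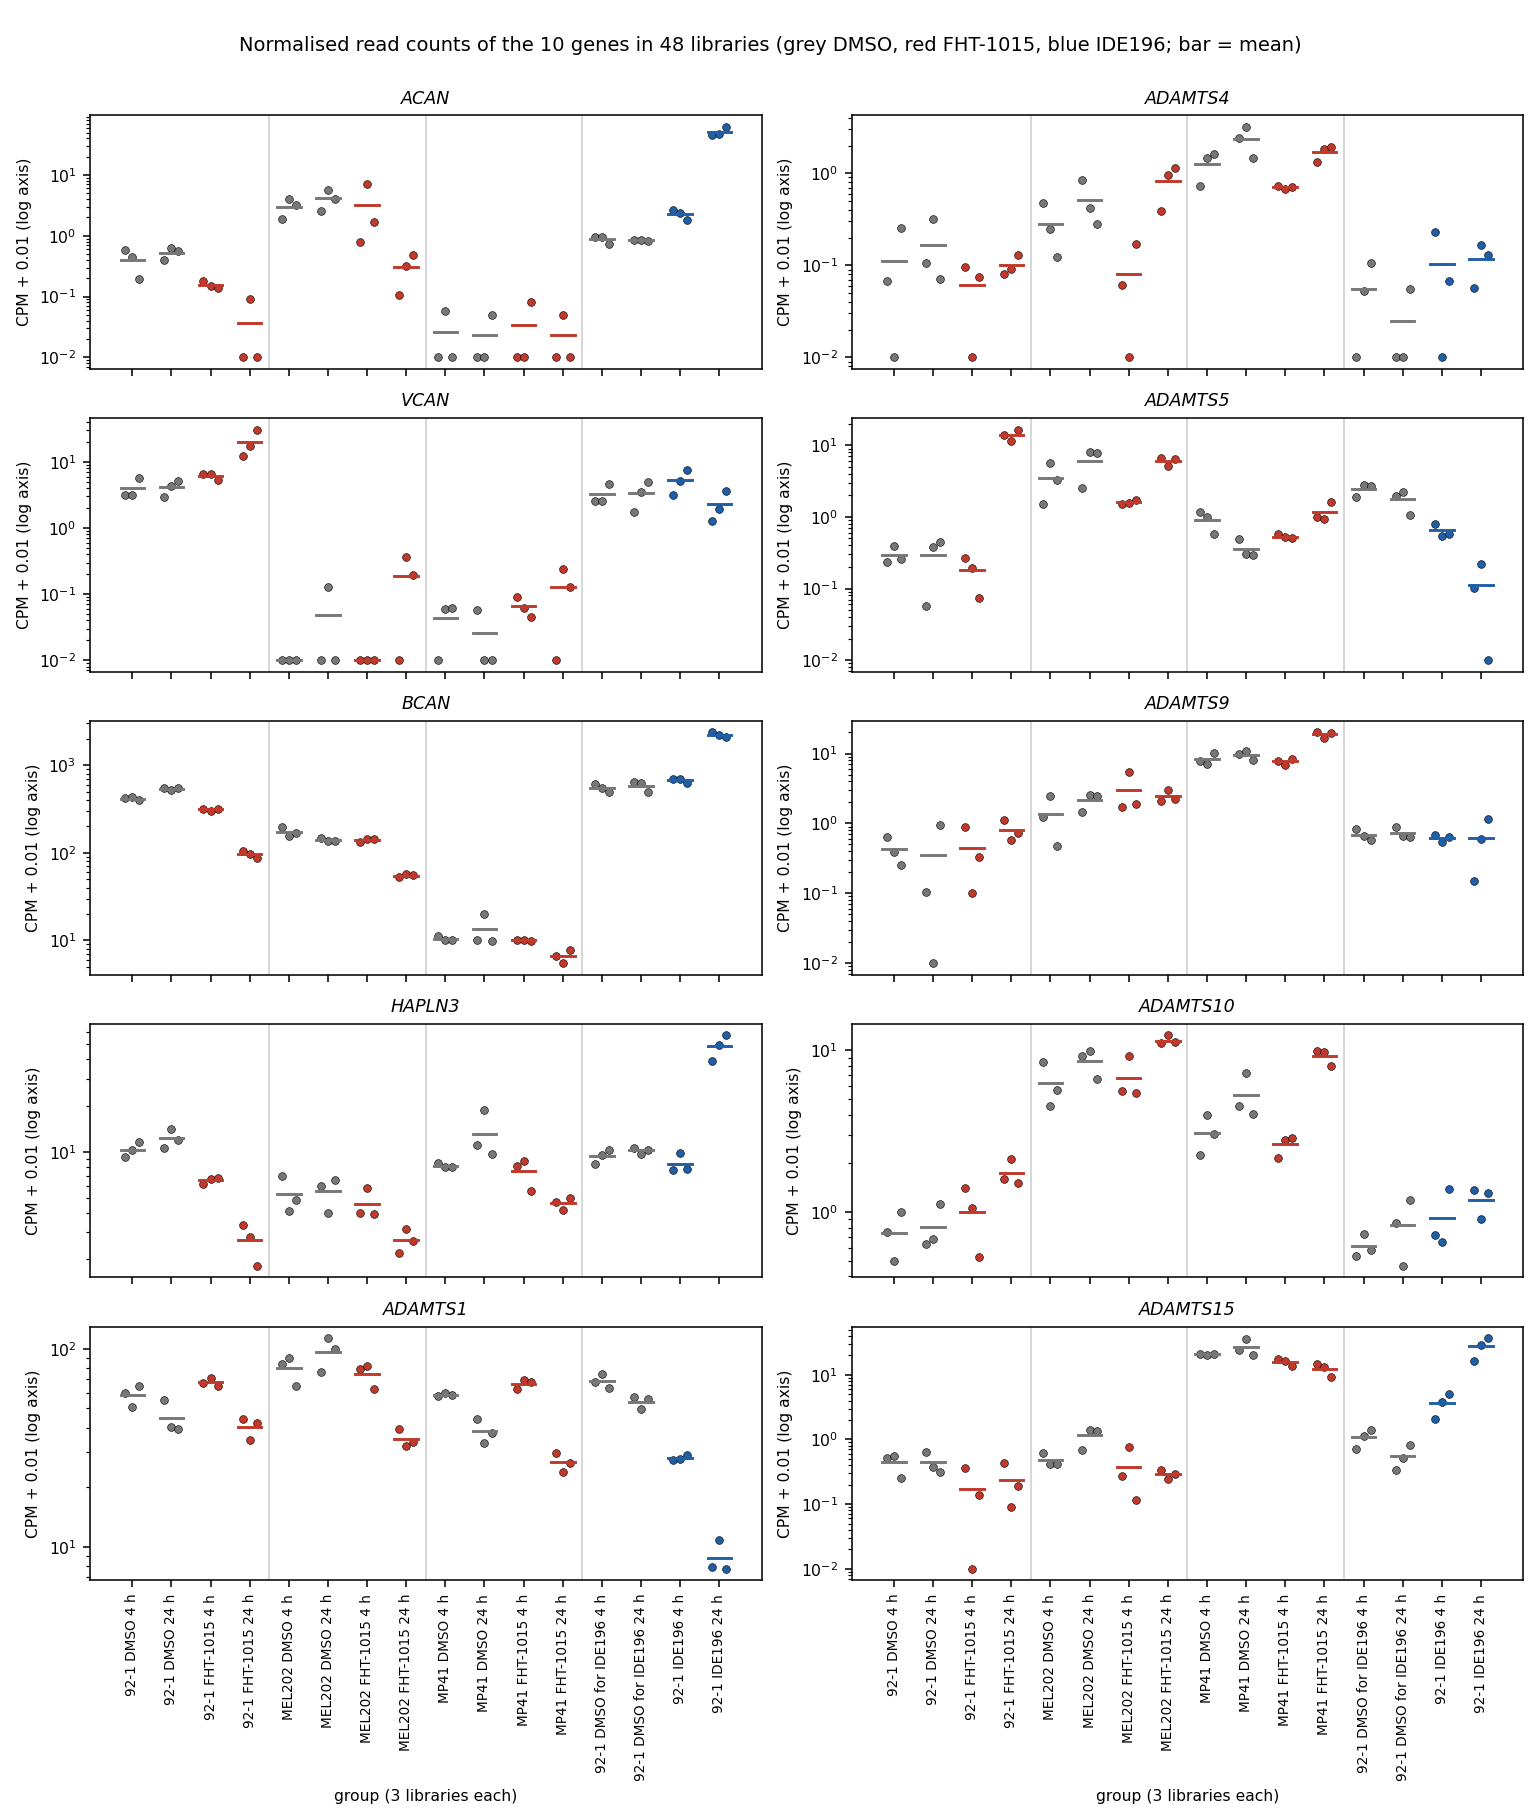
CPM of each of the 10 genes in each of the 48 libraries, with 0.01 added, on log axes that differ between panels. Points are libraries and short lines group means, grey for DMSO, red for FHT-1015 and blue for IDE196, with vertical lines between the 4 experiments. ACAN and ADAMTS15 step up from DMSO to 4 h and again to 24 h of IDE196, while ADAMTS1 and ADAMTS5 step down, and MEL202 with FHT-1015 at 4 h has 1 high ACAN library.

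Likeness of pattern was measured over the 48 libraries, as the Pearson correlation of log2(CPM + 1) minus the mean of the DMSO libraries of the same experiment and time, among 12172 protein-coding genes with a mean of at least 1 CPM. Libraries share a line, and the IDE196 libraries at 24 h weigh heavily in it, so the values are descriptions. ACAN and ADAMTS15 were chosen for their rise in those libraries, so their likeness to each other restates that choice. Among the genes most like ACAN were NOG, which encodes the BMP antagonist noggin (r = 0.941), RASGEF1C (0.914), LINGO2 (0.912) and ADAMTS15 (0.912). For ADAMTS15 they included NOG (0.937), PRODH (0.933), FLRT1 (0.916) and SLC16A10 (0.912). VCAN had weaker matches, led by PTGS2, which encodes cyclooxygenase-2 (0.840), CADM1 (0.836), INTS12 (0.832), UNC5D (0.816) and NXPH1 (0.815).

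The rest of the matrix pathway was followed in 11 lists holding 122 genes, members included. With FHT-1015 at 24 h in 92-1, 26 of the 85 tested rose and 37 fell, with a median log2 fold change of -0.19 beside -0.001 over all genes. Of all genes tested, 29.2% rose and 31.4% fell there. The 26 include genes that could pass the low-count filter only through the libraries of FHT-1015 at 24 h, ADAMTS5 among them, and so had to differ. In MEL202, 13 of 89 rose and 19 fell (median -0.12), against 8.69% and 10.1% of all genes. In MP41 17 of 88 rose and 35 fell (median -0.23), against 17.4% and 18.7%. At 4 h the counts were 6 and 25 of 85 in 92-1 (12.9% and 16.7% of all genes), 0 and 1 of 89 in MEL202 (0.157% and 0.522%), and 0 and 0 of 88 in MP41 (0.0708% and 0.154%).

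Hyalectans and link proteins outside the members were scarce. NCAN (neurocan), the remaining hyalectan, reached at most 16 reads in a library, HAPLN1 at most 11, and HAPLN4 had 0 reads in all 48. HAPLN2 was highest with IDE196 at 24 h, at 1.11 ± 0.57 CPM (SD, n = 3), against 0.142 ± 0.0447 in its DMSO. ADAMTS8, the neighbour of ADAMTS15 and itself a proteoglycanase, had at most 20 reads in a library.

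Of the 12 other ADAMTS proteases, ADAMTS10 included, 5 of 7 tested rose and 0 fell in 92-1 with FHT-1015 at 24 h, where 29.2% of all genes rose. The 5 include ADAMTS19, with a mean of 3.92 CPM there and at most 0.28 in every other group of that experiment. It could pass the low-count filter only where it is high, so it had to differ. In MEL202 3 of 9 rose and 0 fell (8.69% of all genes rose), and in MP41 5 of 7 rose and 1 fell (17.4% rose). ADAMTS6, a close relative of ADAMTS10, rose in every line: from 0.876 ± 0.126 to 41.7 ± 6.20 CPM (SD, n = 3) in 92-1, by 5.54 ± 0.22 on the log2 scale (edgeR adjusted p = 1.77e-11), by 2.71 ± 0.66 in MEL202 (edgeR adjusted p = 0.0108) and by 3.08 ± 0.26 in MP41 (edgeR adjusted p = 1.94e-06). It had already risen by 1.51 ± 0.26 in 92-1 at 4 h (edgeR adjusted p = 0.000431). With IDE196 at 24 h, ADAMTS13, which cleaves von Willebrand factor, was at 22.6 ± 2.31 CPM against 6.64 ± 1.87. It also rose in 92-1 with FHT-1015 at 24 h, from 9.71 ± 3.87 to 22.3 ± 3.92 CPM (edgeR adjusted p = 0.000814), a value added after it was seen.

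Of the metalloprotease inhibitors, 3 of 3 tested fell in 92-1 with FHT-1015 at 24 h (31.4% of all genes did), 2 of 3 in MEL202 (10.1%) and 2 of 3 in MP41 (18.7%). TIMP1 was the one not called, with a log2 fold change of -0.26 ± 0.28 in MEL202 (edgeR adjusted p = 0.588) and 0.03 ± 0.18 in MP41 (edgeR adjusted p = 0.899). TIMP3, which binds matrix and inhibits the aggrecanases, fell from 22.7 ± 1.62 to 2.50 ± 0.142 CPM in MP41 (log2 fold change -3.12 ± 0.18, edgeR adjusted p = 1.11e-07). In MEL202, where it was abundant, it fell from 604 ± 155 to 205 ± 32.2 CPM (-1.54 ± 0.23, edgeR adjusted p = 0.000451). In 92-1 it was low to begin with, 0.762 ± 0.0749 CPM in DMSO, and fell to 0.175 ± 0.136 (edgeR adjusted p = 0.0176). That level is at most 4 reads in a library, near the floor, so no fold is given.

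Of the genes that make and sulfate the chondroitin chains, 5 of 21 rose and 9 fell in 92-1 with FHT-1015 at 24 h (29.2% and 31.4% of all genes). In MEL202 4 of 23 rose and 2 fell (8.69% and 10.1%), and in MP41 3 of 22 rose and 9 fell (17.4% and 18.7%). XYLT1, which adds the first sugar of the chain to the core protein, fell by 4.09 ± 0.22 on the log2 scale in 92-1 (102 ± 14.3 to 6.08 ± 1.38 CPM, edgeR adjusted p = 4.27e-10). It fell by 2.05 ± 0.43 in MEL202 (edgeR adjusted p = 0.00436) and fell by 2.45 ± 0.20 in MP41 (edgeR adjusted p = 1.22e-06). CHST11, a chondroitin 4-O-sulfotransferase, fell at 4 h in 92-1 with either drug, by 2.19 ± 0.11 with FHT-1015 (edgeR adjusted p = 3.11e-09) and by 1.32 ± 0.09 with IDE196 (edgeR adjusted p = 5.4e-08). With IDE196 at 4 h, 2 of 21 genes of this list rose and 9 fell, against 6.89% and 9.3% of all genes.

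Hyaluronan, the chain that aggrecan and versican bind, has its own list of synthases, hydrolases and receptors. With FHT-1015 at 24 h, 1 of 9 rose and 6 fell in 92-1 (29.2% and 31.4% of all genes), 0 of 10 rose and 3 fell in MEL202 (8.69% and 10.1%), and 1 of 10 rose and 4 fell in MP41 (17.4% and 18.7%). CD44, the main hyaluronan receptor, fell from 512 ± 23.0 to 54.2 ± 3.46 CPM in 92-1 (-3.26 ± 0.10, edgeR adjusted p = 2.02e-12). HAS2, a hyaluronan synthase, fell by 1.97 ± 0.33 in 92-1 at 4 h (edgeR adjusted p = 0.000304). With IDE196 at 24 h HAS2 was at 16.0 ± 1.36 CPM against 1.70 ± 0.417 in DMSO. CEMIP, a hyaluronan-degrading protein, rose by 1.89 ± 0.31 with IDE196 at 4 h (edgeR adjusted p = 0.000382), and CEMIP2 fell by 1.58 ± 0.11 (edgeR adjusted p = 5.4e-08).

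Of the genes of cartilage regulation and matrix, 4 of 14 tested rose and 7 fell in 92-1 with FHT-1015 at 24 h (29.2% and 31.4% of all genes). In MEL202 3 of 12 rose and 4 fell (8.69% and 10.1%), and in MP41 3 of 13 rose and 7 fell (17.4% and 18.7%). COL9A1, whose product decorates cartilage collagen fibrils, fell by 3.27 ± 0.55 in 92-1 (edgeR adjusted p = 0.0001) and by 1.67 ± 0.44 in MEL202 (edgeR adjusted p = 0.0167). In MP41 it fell by 2.22 ± 0.25 (edgeR adjusted p = 2.12e-05). Its partner COL9A2 rose by 2.71 ± 0.33 in 92-1 (edgeR adjusted p = 4.25e-06) and by 1.62 ± 0.40 in MEL202 (edgeR adjusted p = 0.0118), and was not called in MP41 (0.71 ± 0.35, edgeR adjusted p = 0.127). The MP41 values of this pair were added after they were seen. With IDE196 COL9A1 rose by 0.82 ± 0.21 at 4 h (edgeR adjusted p = 0.0122), when 2 of 14 genes of the list rose and 0 fell (6.89% and 9.3% of all genes). At 24 h 9 of 14 were higher and 0 lower (28.7% and 29.4% of all genes), with a median log2 fold change of 0.92 beside 0.029 over all genes. The 11 lists together had 11 of 85 genes rising and 14 falling at 4 h of IDE196, against 6.89% and 9.3% of all genes. The 24 h count comes from the comparison in which the members were chosen, and nothing is read from it.

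**Figure D4:**
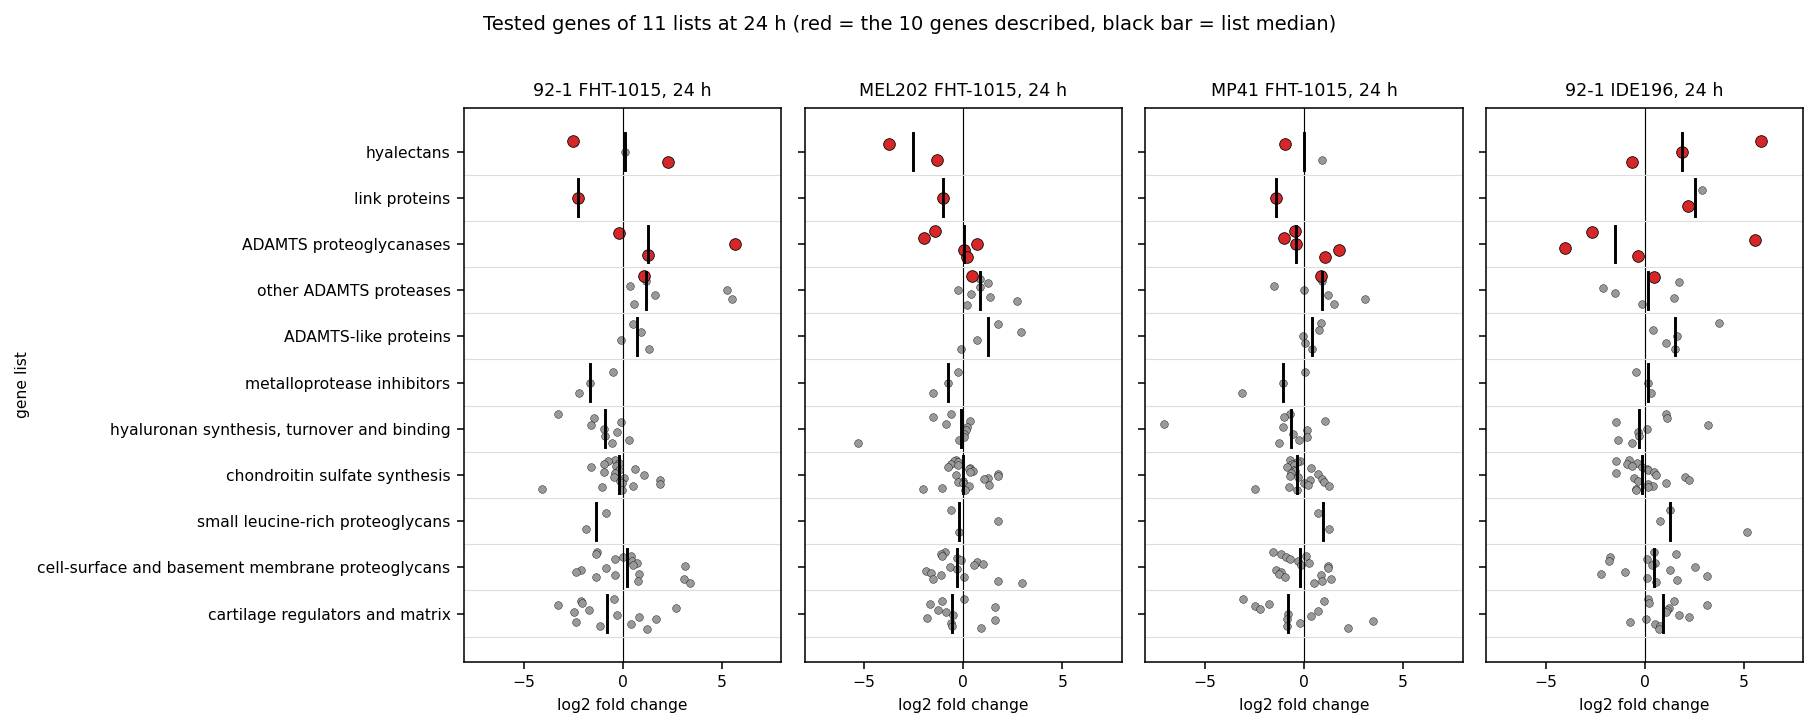
Log2 fold change at 24 h of each tested gene of the 11 pathway lists (rows), for FHT-1015 in 92-1, MEL202 and MP41 and for IDE196 in 92-1 (panels). Red points are the genes described here, grey points the other genes of a list, and black bars the median of the list. The metalloprotease inhibitors have medians of -1.67, -0.76 and -1.05 with FHT-1015, and the cartilage list has a median of -0.80 in 92-1 with FHT-1015 and 0.92 with IDE196.

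Of the cell-surface and basement membrane proteoglycans, 6 of 18 rose and 8 fell in 92-1 with FHT-1015 at 24 h (29.2% and 31.4% of all genes). The 6 include SPOCK3, GPC6 and SPOCK1, at means of 0.879, 2.03 and 2.6 CPM there and at most 0.307 in every other group of that experiment. These could pass the low-count filter only where they are high, so they had to differ. In MEL202 2 of 17 rose and 4 fell (8.69% and 10.1%), and in MP41 2 of 18 rose and 8 fell (17.4% and 18.7%). SDC1 (syndecan-1) fell in 92-1 by 2.33 ± 0.13 (edgeR adjusted p = 5.63e-10) and was also lower with IDE196 at 24 h, at 40.0 ± 3.58 CPM against 176 ± 26.7. Its relative SDC2 was at 18.4 ± 0.814 CPM with IDE196 against 2.03 ± 0.467. PTPRZ1, a phosphatase that carries chondroitin sulfate, fell by 1.90 ± 0.29 in MEL202 with FHT-1015 at 24 h (edgeR adjusted p = 0.000474), from 169 ± 24.3 to 44.8 ± 11.2 CPM. Among the small leucine-rich proteoglycans only 2 or 3 of 11 were tested in a comparison, and PRELP was at 6.57 ± 2.43 CPM with IDE196 at 24 h against 0.175 ± 0.112 in DMSO.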

How the data were processed

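RNA was sequenced from 48 libraries of 3 cell lines, made from poly-A RNA with a kit that does not mark strand, per the labels' protocols. The authors deposited whole-number read counts, not normalised, in files laid out as STAR writes its counts by gene. The submitters' processing notes name hg38 and limma. The annotation and the counting settings are not given in the sources used here. Of the 3 count columns the one without strand was taken, because the strands held nearly equal shares (49.73% to 50.11% on the first). Symbols, positions and exon lengths came from GENCODE 29 (58552 of 58870 genes matched), and promoters from RefSeq (GRCh38.p14).

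Each experiment of 12 libraries was fitted with edgeR 4.0.16 in R 4.3.3 (TMM, filterByExpr defaults, quasi-likelihood F-tests). Calls are Benjamini-Hochberg adjusted p under 0.05 over all genes tested in a comparison. A standard error is the size of the log2 fold change over the root of its F value. Differences among lines, between drugs and between DMSO sets came from joint fits of 36, 24 and 24 libraries. The code was tested on simulated data. Reads are not independent molecules, so bounds against the floor of 3 reads cover counting error only. Alternatives were RLE factors, library size alone, no low-count filter, DESeq2 1.42.0, the sum of both stranded columns, fits of 6 libraries, a replicate block and leaving out each library. The line test without the library that stood apart was added after seeing the data.

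All 10 members were named. From each list, the called gene outside the members with the largest change in each direction could be named per comparison. NCAN, HAPLN1, HAPLN2, HAPLN4, ADAMTS8, ADAMTS19, GPC6, SPOCK1 and SPOCK3, and the markers, were named for their level. One gene among those named by likeness of pattern is not reported here. The members and lists were chosen with earlier results of these data known. Of 123 list genes 122 were matched by symbol, and ADAMTSL6 was not.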

Additional observations from a re-analysis of the deposited data

Results flagged for a closer look

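Several effects of FHT-1015 differed between the 2 times, tested as the effect at 24 h minus that at 4 h on the log2 scale (edgeR, Benjamini-Hochberg adjusted). In 92-1 the difference was 1.67 for VCAN, -2.06 for BCAN, -1.56 for HAPLN3 and 6.32 for ADAMTS5. There ADAMTS5 passed the low-count filter only through the libraries of FHT-1015 at 24 h, where it is high, so it had to differ. In MEL202 it was -3.89 for ACAN, -1.0 for BCAN and -1.33 for ADAMTS1. In MP41 it was -1.30 for HAPLN3, -0.65 for ADAMTS1, 2.59 for ADAMTS5, 1.18 for ADAMTS9 and 1.11 for ADAMTS10. The calls for ADAMTS1 (edgeR adjusted p = 0.0492) and ADAMTS10 (0.0488) in MP41 lay just inside the threshold. That of ADAMTS1 was lost with a replicate block (edgeR adjusted p = 0.0562) and that of ADAMTS10 with RLE factors (0.0549).

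The effect of FHT-1015 at 24 h also differed among the lines, with edgeR adjusted p of 9.16e-05 for BCAN, 0.000486 for ADAMTS1 and 7e-07 for ADAMTS5. Each line is its own experiment, so line and experiment cannot be told apart in these differences.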

How the results depend on the processing

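IDE196 at 24 h, which chose the members, is left out here. Counts of members called kept within 1.5 times of those reported, and no member changed direction past the threshold, in every alternative tried except for the difference between times. In MP41 that difference was called for 5 members, 3 with no low-count filter and 2 to 6 when 1 library was left out. In MEL202 it was called for 3 members and for 0 to 3 when 1 library was left out. Of the 684 member values of a drug against DMSO from leaving out a library, 652 were the same, 12 lost the threshold, 4 gained it, 16 changed sign without being called in either fit, and 0 called values reversed. Of the 386 such values from the other alternatives the numbers were 375, 4, 5, 2 and 0, beside ACAN in 92-1 at 24 h of FHT-1015, tested and called with no low-count filter alone. The differences between 24 h and 4 h are not in these numbers: they lost 36 calls and gained 3 when a library was left out, and lost 6 (of ADAMTS1 and ADAMTS10 in MP41 and BCAN in MEL202) and gained 0 under the others. Comparisons of DMSO sets lost 1 call under the others, ADAMTS15 between MEL202 and 92-1 with no low-count filter, and gained 4.

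Counts over all genes moved further. MEL202 at 4 h had 108 genes called, 207 with no filter, 375 by DESeq2, 0 in the 6-library fit and 28 to 137 with 1 library left out. MP41 at 4 h had 35, and 122, 169, 346 and 7 to 141 under the same alternatives. At 24 h the 6-library fit called 6256 genes in MEL202, against 2984, and 3352 in MP41, against 5617. Leaving out 1 library gave 1810 to 4030 in MEL202 at 24 h, and for the difference between times 515 to 1562 in MEL202 (1097 reported) and 1946 to 5815 in MP41 (2890 reported).

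Replicate numbers were not treated as pairing the samples: 12 of 18 same-numbered pairs deviated together with r above 0.1 (range -0.641 to 0.823), and 12 correlated best with their own number. With the replicate block, members called at 4 h, at 24 h and for their difference were 3, 5 and 4 in 92-1, 0, 3 and 3 in MEL202, and 0, 7 and 4 in MP41. IDE196 libraries share no number with their DMSO libraries. Depth limits ACAN and ADAMTS15 in 92-1 with FHT-1015, VCAN in MEL202 and MP41, ACAN in MP41 and ADAMTS4 in 92-1.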
